A study of Mus musculus with 9 samples.

Results

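The genes described here are 10 co-chaperones and regulators of the heat shock response in mouse splenic monocytes, namely Dnaja1, Dnaja2, Dnajb1, Dnajb4, Dnajb6, Bag3, Stip1, Ahsa1, Hsf1 and Hsf2. They were selected by name, with earlier results of these libraries in view, so that their values in the contrasts between groups describe the genes and are not independent evidence that such genes respond. Each symbol had 1 row in the deposited tables, and the 10 genes are part of 46072 genes listed and of 26108 with a value above 0 in at least 1 library. All 10 were detected in every library and received an adjusted p in every contrast, so that none was lost to a filter on low values.

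The libraries came from monocytes of female C57BL/6 mice aged 8 to 10 weeks, with 3 mice in each of 3 groups, taken from the spleen by magnetic negative selection and not stimulated after isolation. Con mice received water by gavage for 6 days. Van mice received vancomycin, an antibiotic that is hardly absorbed from the bowel, for 6 days, in gavages of 1 mg that came to 2 mg a day. VanLip mice received the same vancomycin and then L654, a lipid of Bacteroidota that is sensed through the receptor TLR2, behind the eye on days 7, 9 and 11. The days after gavage, on which the lipid was given, were a rest without antibiotic in every group, of 6 to 8 days per the labels and 8 days in the study's account. The labels name no injection for the Con and Van mice, while the study describes controls injected with PBS for the same protocol. Whether the sequenced Con and Van mice were injected was not clear from these sources.

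J-domain proteins bind unfolded clients, hand them to HSP70 and stimulate its ATPase, and they are the part of the HSP70 machine that selects the client. DNAJA1 and DNAJA2 are type A proteins, built like bacterial DnaJ, while DNAJB1, DNAJB4 and DNAJB6 are type B. BAG3 releases nucleotide from HSP70 and links it to autophagy. STIP1, also called HOP, holds HSP70 and HSP90 together while a client is passed on, and AHSA1 stimulates the ATPase of HSP90. HSF1 is the transcription factor that induces most chaperone genes after proteotoxic stress and is itself regulated mainly at the protein level, and HSF2 is a related factor that can form mixed trimers with it. HSF trimers bind heat shock elements, which are arrays of the unit GAA and its reverse complement TTC in alternating orientation, separated by 2 bases.

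Promoter sequence was listed by RefSeq for 9 of the 10 genes, all but Hsf1. It came as 14 windows of 300 bases on GRCm38.p6, each from 250 bases before to 50 bases after a start of transcription. The windows were searched for 3 alternating units (GAA or TTC, with any 2 bases between), on both strands and in either phase, and for 2 such units, which also match within every array of 3 units. Arrays of 3 units were found in 198 of all 32851 windows (0.603%), and arrays of 2 units in 15.1%. Of the 9 genes with a window Dnajb6 held an array of 3 units, 46 bases before its first start, in a stretch that both of its overlapping windows include. Pairs of 2 units lay 124 bases before a start of Dnaja1, 14 bases before the second start of Dnajb4 and 43 bases after the start of Bag3. The pair of Bag3 ends at the last base of its window, so a further unit beyond it would not be seen. The windows of Dnaja2, Dnajb1, Hsf2, Stip1 and Ahsa1 held neither; that says only that these letters are absent from these windows. The sequences shown are those with an array of 3 units (Dnajb6), the J-domain gene and the exchange factor that were higher in Van (Dnaja1 and Bag3), and Stip1, which had the largest fold of Van over Con among the 10 and no match. They are written 5′ to 3′ in the direction of transcription, with matched units in capitals. The Dnajb6 window lies at chr5:29735648-29735947 on the plus strand, that of Dnaja1 at chr4:40722218-40722517 on the plus strand, that of Bag3 at chr7:128523333-128523632 on the plus strand and that of Stip1 at chr19:7039977-7040276 on the minus strand.
Dnajb6: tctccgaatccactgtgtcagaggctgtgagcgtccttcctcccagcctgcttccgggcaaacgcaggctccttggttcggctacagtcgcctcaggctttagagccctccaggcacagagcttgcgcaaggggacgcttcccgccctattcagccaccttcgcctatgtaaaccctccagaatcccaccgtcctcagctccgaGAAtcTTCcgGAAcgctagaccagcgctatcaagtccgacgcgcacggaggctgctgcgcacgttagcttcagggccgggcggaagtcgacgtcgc
Dnaja1: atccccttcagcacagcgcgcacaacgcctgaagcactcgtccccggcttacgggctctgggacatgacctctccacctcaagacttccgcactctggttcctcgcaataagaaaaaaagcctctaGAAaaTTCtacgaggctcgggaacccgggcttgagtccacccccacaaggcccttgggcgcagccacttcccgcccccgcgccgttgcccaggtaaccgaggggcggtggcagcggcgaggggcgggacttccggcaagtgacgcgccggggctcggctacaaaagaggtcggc
Bag3: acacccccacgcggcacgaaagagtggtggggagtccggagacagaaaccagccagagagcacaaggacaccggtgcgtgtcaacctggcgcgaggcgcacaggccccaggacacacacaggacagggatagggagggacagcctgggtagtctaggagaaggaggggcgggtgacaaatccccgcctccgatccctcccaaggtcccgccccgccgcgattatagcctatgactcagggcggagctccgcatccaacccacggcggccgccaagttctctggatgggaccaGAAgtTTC
Stip1: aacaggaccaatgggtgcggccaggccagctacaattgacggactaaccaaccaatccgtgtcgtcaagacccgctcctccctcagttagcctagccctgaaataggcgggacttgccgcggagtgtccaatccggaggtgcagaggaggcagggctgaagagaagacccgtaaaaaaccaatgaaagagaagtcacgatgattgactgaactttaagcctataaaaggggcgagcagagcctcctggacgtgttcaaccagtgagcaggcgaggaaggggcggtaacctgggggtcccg

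All 10 genes were expressed well within the upper part of the transcriptome. Levels are compared between genes on the FPKM scale, which divides by the length of the transcript and by the mapped fragments of the library. Ahsa1 had the highest mean FPKM over the 9 libraries, 50.1, which was above that of 94.9% of the genes with a value above 0. Dnaja1 followed at 44.8, Dnajb6 at 37.1, Dnaja2 at 32.9, Stip1 at 30.4 and Dnajb1 at 26.2. Bag3 had a mean FPKM of 18.5 and Hsf1 of 15.9, while Hsf2 at 6.72 and Dnajb4 at 6.12 were the lowest and still above 72.6% of those genes. In the Con libraries some neighbours in this order could not be separated. Ahsa1 (FPKM 40.8 to 46.6) overlapped Dnaja1 (38.9 to 42.6), Dnajb1 (23.0 to 27.8) overlapped Stip1 (21.3 to 24.0), and Bag3 (15.3 to 17.9) overlapped Hsf1 (14.0 to 16.0). Hsf2 (6.30 to 7.29) stood above Dnajb4 (5.38 to 6.20) in Con, but in Van the FPKM of Dnajb4 (6.79 to 8.12) overlapped that of Hsf2 (6.08 to 7.21).

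Contrasts are written as Van/Con, VanLip/Con and VanLip/Van, with the first group named over the one it is compared to. Differences between groups were read from counts normalized for depth and tested with the DESeq2 Wald test, and a gene is called where its p, adjusted by the Benjamini-Hochberg method over all genes tested, was 0.05 or under. Of the 10 genes 4 were called higher in Van than in Con and 0 lower, where 2.27% of 18516 tested genes were called higher and 2.06% lower. For VanLip/Con 0 were called higher and 1 lower, beside 2.98% and 3.69% of all genes tested. For VanLip/Van 0 were called higher and 5 lower, beside 4.58% and 5.28%. At an unadjusted p under 0.05 the 3 contrasts had 6, 1 and 6 of the 10 genes. The share of all genes at that threshold was not counted. The 10 genes were chosen with these contrasts known, so no more is read from their counts than that they were called. Each adjusted p printed below for 1 of these genes comes from the same data and is likewise a description, not independent support. The median log2 fold change of the 10 was 0.34 for Van/Con, 0.02 for VanLip/Con and -0.31 for VanLip/Van, and that of all genes tested was -0.01, 0.01 and 0.01. All 3 contrasts share libraries, so their values are given side by side.

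**Figure D1:**
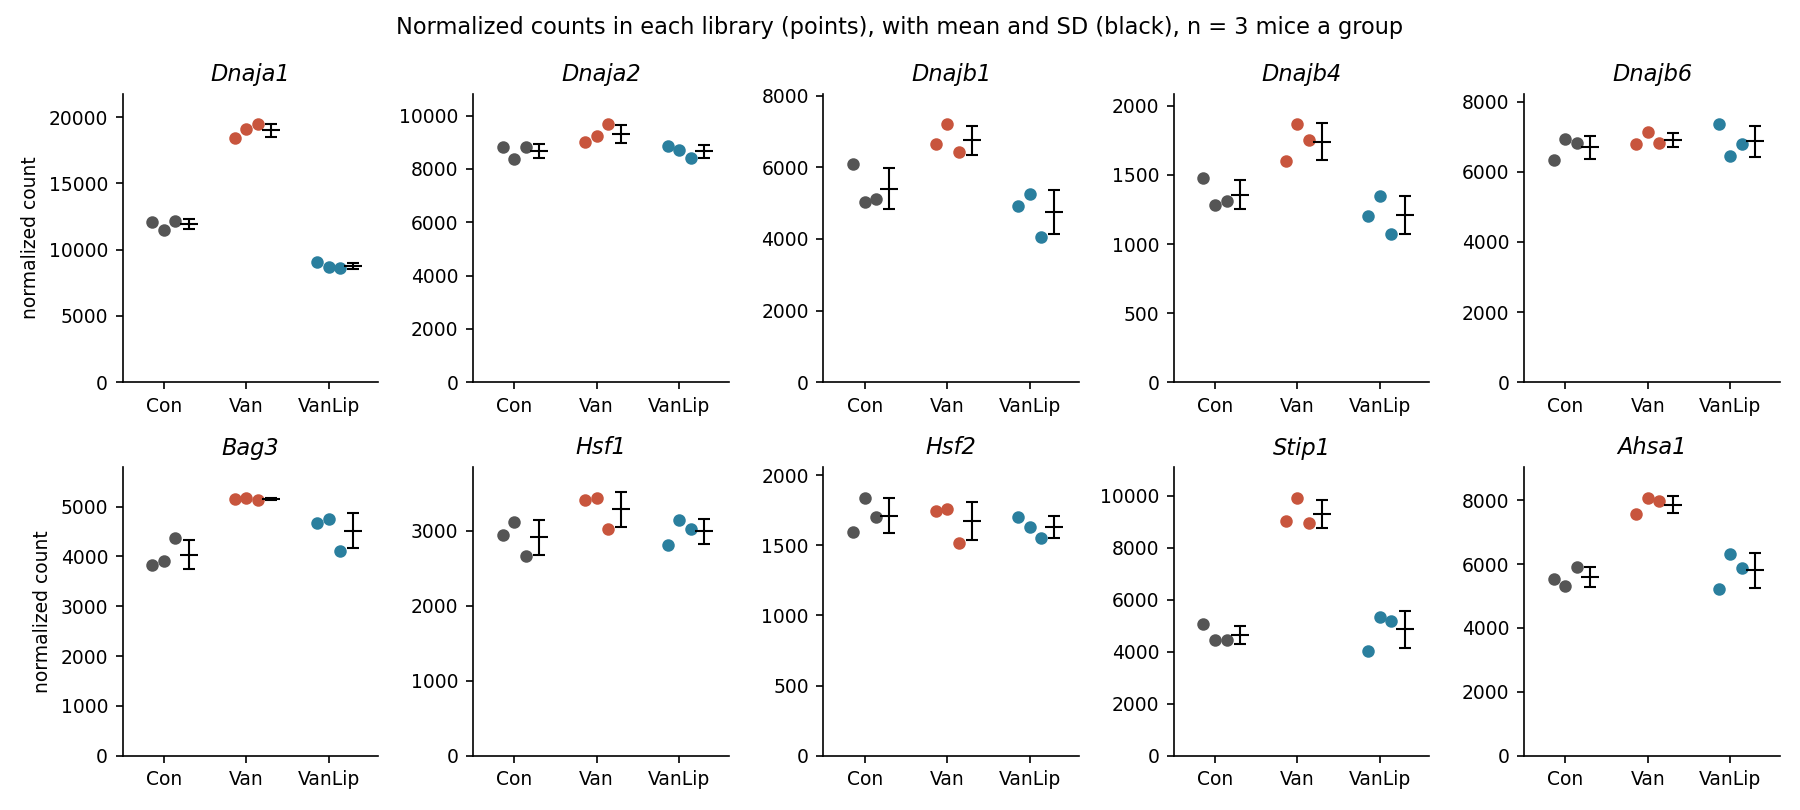
Normalized counts (y axes, each from 0) of the 10 genes in Con, Van and VanLip (x axes), with 1 point per library and the mean and SD of 3 libraries in black. The 3 Van libraries lie above all Con and all VanLip libraries in Dnaja1, Dnaja2, Stip1, Ahsa1, Dnajb1, Dnajb4 and Bag3, whereas the groups overlap in Dnajb6, Hsf1 and Hsf2.

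The VanLip libraries differed from the others in the totals and in the low values of their expected counts. Totals of the expected counts spanned 43070361 to 61383806 in Con and Van, but 170503470 to 184720704 in VanLip. The low count met most often also differed, being 1.33 in 4 and 2.67 in 2 libraries of Con and Van and 2.00 in all 3 of VanLip. Whether read length differed was not tested, and 1 read length is stated for the series. Depth and the VanLip group coincide, and cannot be told apart in either contrast that uses VanLip. Con and Van did not differ in this way, but VanLip libraries enter the shared fit behind Van/Con. With only Con and Van in the fit 6 of the 10 genes were called for Van/Con instead of 4. The share of all genes called in that fit was not counted. With VanLip counts thinned to the depth of the other libraries the 3 contrasts gave 4, 1 and 5 called genes, as before thinning.

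Monocyte identity was checked on 14 markers, each above 0 in at least 1 library, with a summed FPKM of 10651 to 11314 in Con, 9186 to 11133 in Van and 10691 to 12403 in VanLip, of which DESeq2 called 1 lower for Van/Con and 3 higher for VanLip/Van, and edgeR 0 and 2. B cell markers had a summed FPKM of 16.6 to 17.8 in Con, 13.7 to 15.6 in Van and 12.7 to 17.5 in VanLip, so that every Van library was below every Con library, and 0 of 8 had a positive value for Van/Con (list median -0.50). T and NK cell markers summed to 13.1 to 17.0 in Con, 9.66 to 14.2 in Van and 7.67 to 15.9 in VanLip, with 3 of 12 positive for Van/Con (list median -0.55). DESeq2 and edgeR called 0 genes of these lists in the 3 contrasts, and by DESeq2 each list had 1 gene at an unadjusted p under 0.05 for Van/Con, against 2 and 0 for VanLip/Con and 1 and 0 for VanLip/Van. Neutrophil markers summed to 6.27 to 14.1 in Con, 2.68 to 12.3 in Van and 3.82 to 6.38 in VanLip. Of the 10 neutrophil markers Ly6g was listed at 0 in every library, and DESeq2 called 1 lower for Van/Con and 1 lower for VanLip/Con (list medians -0.72 and -0.90), while edgeR called 0. The part of these 3 marker lists in the values of the 10 genes was not tested. Erythroid and platelet markers moved with the groups, from a summed FPKM of 121 to 213 in Con to 352 to 784 in Van and 283 to 1175 in VanLip, with 5 of 11 called higher for Van/Con and 7 for VanLip/Con by DESeq2, and 0 and 5 by edgeR. The part of these markers in the values of the 10 genes was not tested. Dendritic cell and macrophage markers summed to an FPKM of 802 to 938 in Con, 993 to 1221 in Van and 839 to 1048 in VanLip, with 1 called higher and 3 lower of 12 for Van/Con by DESeq2 and 0 and 1 by edgeR. For VanLip/Con DESeq2 called 1 of them lower and edgeR 0, and for VanLip/Van DESeq2 called 2 higher and 1 lower and edgeR 0 and 1, and their part was likewise not tested. In such bulk libraries a change in the share of a cell type and a change of RNA per cell cannot be told apart.

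Dnaja1 (ENSMUSG00000028410; GRCm38, chr4:40722150-40737149, plus strand) was the J-domain gene with the clearest separation. Its normalized counts were 12047, 11471 and 12174 in the Con libraries, 18443, 19091 and 19440 in the Van libraries and 9026, 8706 and 8590 in the VanLip libraries. The 3 groups did not overlap with each other, Van being the highest and VanLip the lowest. Its log2 fold change was 0.67 (standard error 0.06) for Van/Con, -0.44 (0.06) for VanLip/Con and -1.11 (0.06) for VanLip/Van. Dnaja1 was known from earlier rankings of Van/Con and VanLip/Van, so its values are given without a p. Of the 10 genes it alone was called for VanLip/Con. Dnaja1 shares 608 bases with Smu1 on the opposite strand (mean FPKM 20.4), and since the use of strand in counting was not stated, reads of the pair in that stretch cannot be separated. A pseudogene, Dnaja1-ps, was listed at 0 in every library.

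Dnaja2 (ENSMUSG00000031701; chr8:85537633-85555344, minus strand), the other type A gene, had normalized counts of 8835, 8364 and 8815 in Con, 8997, 9246 and 9669 in Van and 8859, 8718 and 8405 in VanLip. Each Van library lay above each Con library, but the margin was small. The log2 fold change was 0.10 for Van/Con, with a 95% interval from -0.02 to 0.22 and a DESeq2 adjusted p of 0.448. For VanLip/Van it was -0.10, from -0.22 to 0.01, and the gene was not called. Any change of Dnaja2 of the size seen in Dnaja1 lies outside these intervals.

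The balance of the type A pair therefore differed by group. The ratio of Dnaja1 to Dnaja2 on the FPKM scale was 1.33, 1.27 and 1.28 in the Con libraries, 1.83, 1.83 and 1.78 in the Van libraries and 0.962, 0.929 and 0.948 in the VanLip libraries. The ratio was 1.29 ± 0.03 in Con, 1.81 ± 0.03 in Van and 0.947 ± 0.017 in VanLip (mean ± SD, n = 3 libraries each), so that Dnaja1 was the more abundant transcript in Con and Van and the less abundant one in all 3 VanLip libraries. Among the 5 J-domain genes of the set, Dnaja1 made up 29.5% ± 0.3 of the summed FPKM in Con, 36.0% ± 0.8 in Van and 23.9% ± 0.5 in VanLip (mean ± SD, n = 3 libraries each). The summed FPKM itself was 139.8 ± 5.6 in Con, 173.6 ± 7.0 in Van and 127.5 ± 5.6 in VanLip. The ratio was computed after the pattern of Dnaja1 was known, and no test was made of it.

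**Figure D2:**
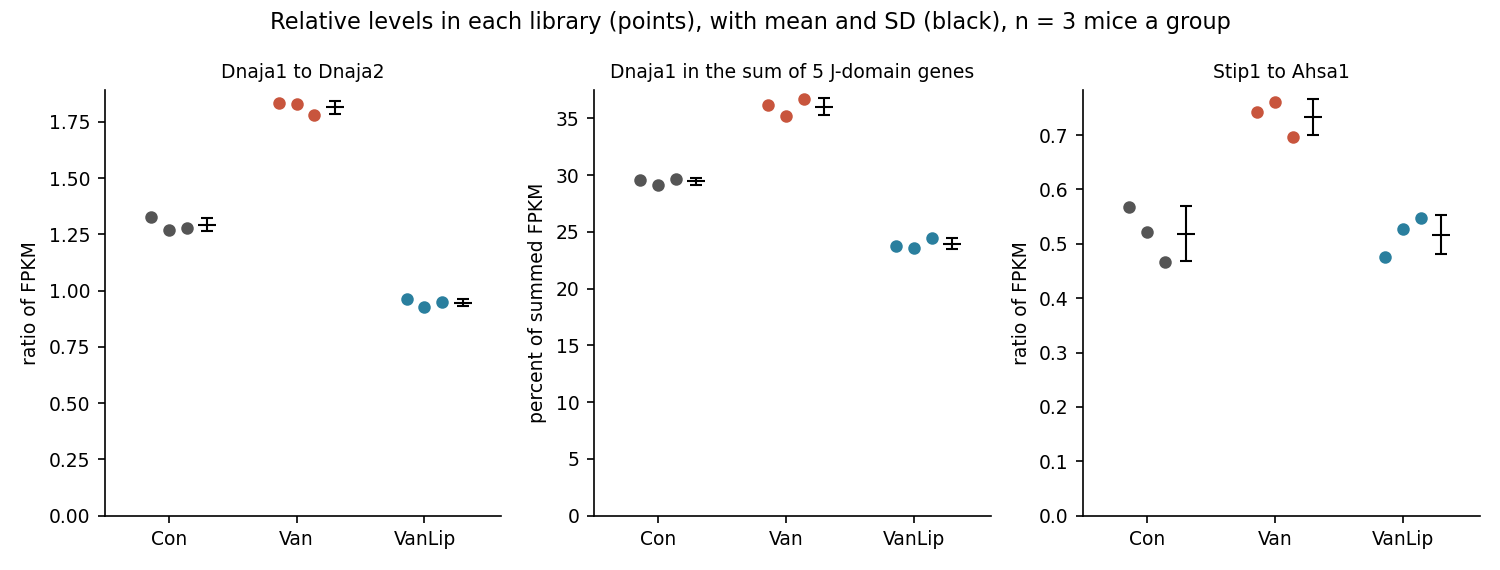
Relative FPKM in each library, as the ratio of Dnaja1 to Dnaja2 (left), the percent that Dnaja1 makes of the summed FPKM of 5 J-domain genes (middle) and the ratio of Stip1 to Ahsa1 (right), for Con, Van and VanLip on the x axes, with the mean and SD of 3 libraries in black. Dnaja1 to Dnaja2 falls below 1 in all 3 VanLip libraries, while Stip1 to Ahsa1 in VanLip lies at the level of Con.

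Dnajb1 and Dnajb4, a closely related pair of inducible type B genes whose proteins act with HSP70 on aggregated clients, had similar profiles over the libraries. Dnajb1 (ENSMUSG00000005483; chr8:83608193-83612653, plus strand) had normalized counts of 6079, 5026 and 5116 in Con, 6640, 7197 and 6413 in Van and 4932, 5250 and 4064 in VanLip. Dnajb4 (ENSMUSG00000028035; chr3:152178511-152210302, minus strand) had 1479, 1282 and 1312 in Con, 1599, 1865 and 1756 in Van and 1201, 1348 and 1075 in VanLip. In both genes every Van library was above every Con and VanLip library, Con replicate 1 was the highest of Con, and Con and VanLip overlapped.

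Neither gene was called for Van/Con. The log2 fold change of Dnajb1 was 0.32 (standard error 0.12; DESeq2 adjusted p = 0.0973) and that of Dnajb4 was 0.36 (0.12; DESeq2 adjusted p = 0.0613). Single libraries and the choice of groups decided these calls. Dnajb1 was called without Con replicate 1 (0.41) or without VanLip replicate 3 (0.32), and Dnajb4 without Van replicate 1 (0.42), VanLip replicate 2 (0.36) or VanLip replicate 3 (0.36). With only the Con and Van libraries in the fit both were called, at log2 values of 0.32 and 0.36, which brought the number of the 10 genes called to 6. For VanLip/Van both fell, Dnajb1 by 0.51 (standard error 0.12; DESeq2 adjusted p = 0.000413) and Dnajb4 by 0.53 (0.12; DESeq2 adjusted p = 0.000309) on the log2 scale. The call of Dnajb1 was lost under limma on log2 FPKM with a pseudocount of 1 or 0.1, and that of Dnajb4 with 0.1. Against Con their VanLip values were -0.19 and -0.17, with 95% intervals from -0.41 to 0.04 and from -0.40 to 0.06. These values depended on single libraries, at -0.09 for both without VanLip replicate 3, at -0.09 and -0.10 without Con replicate 1, and at -0.25 for Dnajb4 without VanLip replicate 2.

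Dnajb6 (ENSMUSG00000029131; chr5:29735688-29818134, plus strand), a type B gene whose protein holds back the growth of polyglutamine and amyloid aggregates, stayed within the spread of its replicates. Its normalized counts were 6335, 6943 and 6811 in Con, 6786, 7123 and 6810 in Van and 7353, 6458 and 6801 in VanLip, and all 3 groups overlapped. The log2 fold change was 0.04 for Van/Con (95% interval from -0.10 to 0.19), 0.04 for VanLip/Con (from -0.11 to 0.18) and -0.01 for VanLip/Van (from -0.15 to 0.14). Of the 9 genes with a promoter window it alone held an array of 3 heat shock element units.

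Bag3 (ENSMUSG00000030847; chr7:128523616-128546981, plus strand) had normalized counts of 3826, 3916 and 4370.5 in Con, 5155, 5174 and 5139 in Van and 4681, 4756 and 4112 in VanLip. The Van libraries lay above all others and within a coefficient of variation of 0.342%, against 7.23% in Con. VanLip overlapped Con. Bag3 was called for Van/Con with a log2 fold change of 0.35 (standard error 0.09; DESeq2 adjusted p = 0.00267), but not by the quasi-likelihood test of edgeR (adjusted p = 0.0618) or by limma on log2 FPKM in any of 3 settings (adjusted p from 0.0752 to 0.15). The lower value in VanLip than in Van, -0.19 (standard error 0.08), was not called (DESeq2 adjusted p = 0.147), and the log2 difference of VanLip from Con was 0.16, with a 95% interval from -0.00 to 0.33.

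Stip1 and Ahsa1, which act at the HSP90 end of the cycle, were higher in Van. Stip1 (ENSMUSG00000024966; chr19:7020702-7039967, minus strand) had normalized counts of 5051, 4460 and 4458 in Con, 9049, 9921 and 8949 in Van and 4022, 5355 and 5197 in VanLip. Van was thus 2.00-fold above Con, the largest change of the 10 genes in that contrast. The log2 fold change was 1.00 (standard error 0.12; DESeq2 adjusted p = 1.81e-14) for Van/Con and -0.94 (0.12; DESeq2 adjusted p = 1.42e-13) for VanLip/Van. The Van/Con call was lost under limma on log2 FPKM with a pseudocount of 0.1 (adjusted p = 0.0628). VanLip libraries surrounded those of Con, with a log2 difference of 0.06 and a 95% interval from -0.17 to 0.29.

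Ahsa1 (ENSMUSG00000021037; chr12:87266479-87273998, plus strand) had normalized counts of 5520, 5302 and 5920 in Con, 7557, 8072 and 7965 in Van and 5232, 6302 and 5877 in VanLip. Every Van library was above every other library, and VanLip replicate 1 was the lowest of VanLip in Ahsa1 as in Stip1. The log2 fold change was 0.50 (standard error 0.09; DESeq2 adjusted p = 4.56e-06) for Van/Con and -0.44 (0.09; DESeq2 adjusted p = 2.31e-05) for VanLip/Van. The Van/Con call was lost under limma on log2 FPKM with a pseudocount of 1 (adjusted p = 0.0578) or 0.1 (adjusted p = 0.0943). For VanLip/Con it was 0.06, with a 95% interval from -0.11 to 0.23. The FPKM ratio of Stip1 to Ahsa1 was 0.519 ± 0.050 in Con, 0.734 ± 0.034 in Van and 0.517 ± 0.037 in VanLip (mean ± SD, n = 3 libraries each). It was computed with the results of both genes known, and no test was made of it.

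The transcripts of the heat shock factors themselves did not move by a detectable amount. Hsf1 (ENSMUSG00000022556; chr15:76477422-76501913, plus strand) had normalized counts of 2938, 3118 and 2667 in Con, 3407, 3434 and 3017 in Van and 2813, 3137 and 3023 in VanLip. The groups overlapped, and the log2 fold change for Van/Con was 0.18 with a 95% interval from -0.01 to 0.36 (DESeq2 adjusted p = 0.375). For VanLip/Van it was -0.14, from -0.32 to 0.05. Hsf2 (ENSMUSG00000019878; chr10:57486385-57513135, plus strand) had normalized counts of 1593, 1837 and 1704 in Con, 1747, 1759 and 1518 in Van and 1704, 1631 and 1551 in VanLip. Its log2 fold change was -0.03 for Van/Con (from -0.23 to 0.16) and -0.04 for VanLip/Van (from -0.23 to 0.15). Transcript levels say nothing of the trimer or the phosphorylated form of HSF1, which were not measured.

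**Figure D3:**
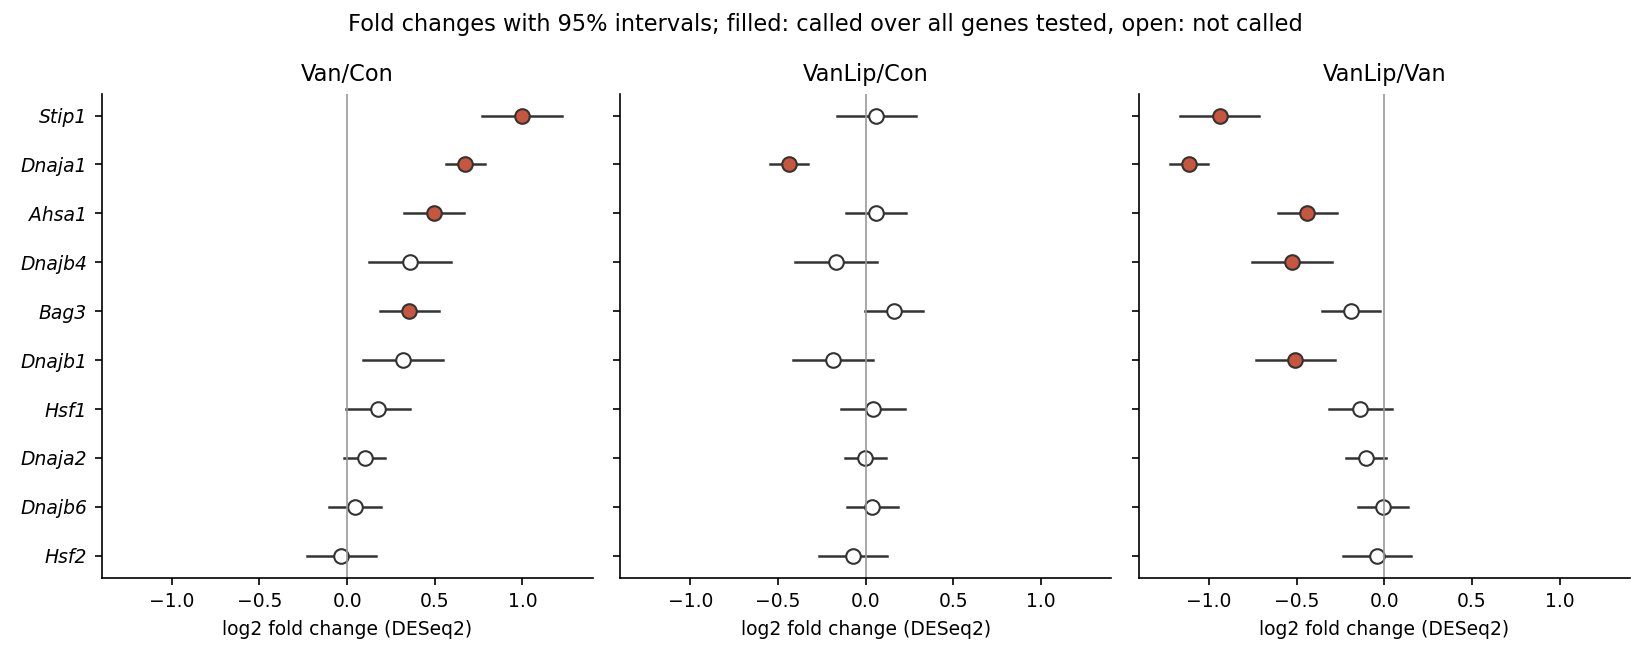
Log2 fold changes (x axes, DESeq2) of the 10 genes in 3 contrasts, with 95% intervals as lines, filled points for called genes and open points for genes not called. Stip1, Dnaja1, Ahsa1 and Bag3 are filled for Van/Con, Dnaja1 alone for VanLip/Con, and Dnaja1, Stip1, Ahsa1, Dnajb4 and Dnajb1 for VanLip/Van.

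Read as ranges alone, 7 of the 10 genes had every Van library above every Con library, beside 12.7% of the 13503 genes whose normalized counts averaged 50 or more. In 1 gene, Dnaja1, every VanLip library was below every Con library, beside 11.3%, and in 7 genes every VanLip library was below every Van library, beside 14.4%. The edgeR quasi-likelihood test called 3 of the 10 genes higher for Van/Con (Dnaja1, Stip1 and Ahsa1), where it called 0.765% of all genes tested higher. It called 1 lower for VanLip/Con, beside 0.883%, and 5 lower for VanLip/Van, beside 2.7%.

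The rest of the chaperone network was counted on lists of other genes, which like the 10 genes were drawn up with earlier results known. Of all genes tested DESeq2 called 2.27% higher and 2.06% lower for Van/Con, and 2.98% and 3.69% for VanLip/Con. For VanLip/Van the shares were 4.58% and 5.28%. Of 18 tested cytosolic HSP70, HSP110, HSP90 and small HSP genes, 5 were called higher in Van than in Con and 0 lower. Hsph1, the HSP110 exchange factor of HSP70, had a log2 fold change of 1.75, from 3199, 2801 and 2819 normalized counts in Con to 9427, 10192 and 10140 in Van, with 1573, 2475 and 2459 in VanLip. The constitutive HSP70 gene Hspa8 was at 0.60, the HSP90 gene Hsp90aa1 at 0.63 and the HSP110-like gene Hspa4l at 0.79. These 4 were also lower in VanLip than in Van, at -2.19, -0.76, -0.86 and -0.74. The list median was 0.16 for Van/Con and -0.37 for VanLip/Van, where 8 were called lower and 0 higher.

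The stress-inducible HSP70 genes Hspa1a and Hspa1b had a different pattern from the 10 genes. Hspa1a had normalized counts of 13881, 7125 and 21064 in Con, 14375, 15173 and 15541 in Van and 787, 1767 and 1270 in VanLip. Hspa1b had 15464, 7741 and 22019 in Con, 17084, 17014 and 17911 in Van and 528, 1570 and 1175 in VanLip. Con libraries of both genes spread widely around those of Van, and all VanLip libraries were far below. Neither was called for Van/Con, at log2 values of 0.10 and 0.20, and both were called lower for VanLip/Con, at -3.46 and -3.79, and for VanLip/Van, at -3.56 and -3.99, by DESeq2 and edgeR alike. With the related Hspa1l, DESeq2 called 3 genes of the list lower for VanLip/Con and edgeR 2. Hspa1a and Hspa1b are nearly identical copies, so that reads may have been divided between them. Among the 10 genes Dnaja1 was likewise called lower in VanLip than in Con, whereas the other 9 were not called there. Of the 10 genes 5 had positive and 5 negative values for VanLip/Con.

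Of 22 HSP90 co-chaperones outside the 10 genes, 5 were called higher in Van than in Con and 0 lower. The immunophilins Fkbp5 and Fkbp4 were at 2.84 and 0.83, Chordc1 at 0.80 and Ahsa2, a relative of Ahsa1, at 0.67, and they were at -2.05, -0.64, -0.87 and -0.59 for VanLip/Van. Fkbp5, which is also a classical target of the glucocorticoid receptor, had normalized counts of 1297, 1924 and 1281 in Con, 8585, 8816 and 14811 in Van and 2797, 3277 and 1714 in VanLip. For VanLip/Van 5 of the 22 were called lower and 1, the ubiquitin ligase gene Stub1, higher at 0.34. The list medians were 0.09 for Van/Con, 0.12 for VanLip/Con and 0.05 for VanLip/Van. Those of all genes tested were -0.01, 0.01 and 0.01. For VanLip/Con 2 were called higher, Stub1 at 0.39 and Nudc at 0.30, the latter not by edgeR, and 0 lower.

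The other J-domain genes were called for Van/Con and VanLip/Van at about the shares of all genes tested. Of 41 tested, Dnajb2 was called for Van/Con at 0.67 and Dnajc27 at -0.62, with a list median of 0.01. For VanLip/Van Dnajb2 and, by DESeq2 alone, Dnajb13 were called lower, at -0.76 and -0.44, and Dnajc8 and Dnajc17 higher, at 0.24 and 0.49, while DESeq2 and edgeR called 0 for VanLip/Con, where 39 were tested and 3 higher and 2 lower had an unadjusted p under 0.05. Of 7 HSP70 exchange factors and adaptors St13 alone was called by DESeq2, at 0.39 for Van/Con and -0.37 for VanLip/Van, and edgeR called 0 of them. Both genes of the mitochondrial chaperonin, Hspd1 and Hspe1, were called at 0.43 and 0.31 for Van/Con and at -0.45 and -0.31 for VanLip/Van, out of 6 mitochondrial chaperones, and edgeR called Hspd1 but not Hspe1 in both. Of the genes for other heat shock factors and their regulators, 3 were tested for Van/Con and VanLip/Van and 2 for VanLip/Con. DESeq2 and edgeR called 0 of them, and 0 had an unadjusted p under 0.05. Hsbp1, the heat shock factor binding protein gene, was at 0.02 for Van/Con.

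**Figure D4:**
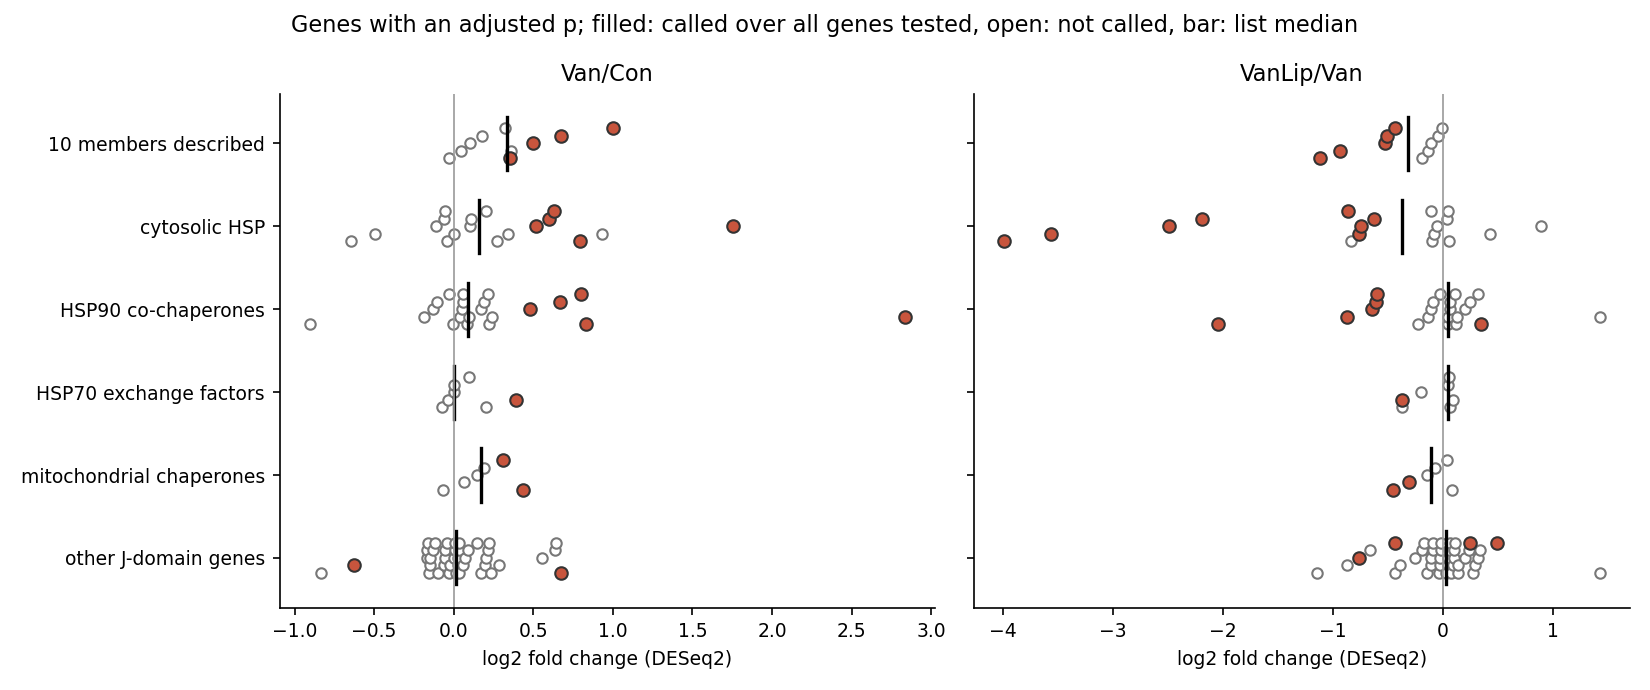
Log2 fold changes (x axes, DESeq2, of different length in the left and right panels) of the 10 genes and of 5 lists of other chaperone genes (rows) for Van/Con and VanLip/Van, with filled points for called genes, open points for genes not called and a bar at each median. Other J-domain genes cluster around 0 in both panels, while called genes of the cytosolic HSP and HSP90 co-chaperone lists lie to the right for Van/Con and mostly to the left for VanLip/Van.

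Immediate early genes, which cells induce within minutes of many stimuli including dissociation of tissue, were counted in the same way. The transcript of Fos was abundant in all groups, with mean normalized counts of 171086 in Con, 165295 in Van and 148783 in VanLip. Of the 22 immediate early genes DESeq2 and edgeR each called 0 for Van/Con. There 13 had a positive value, and 7 were higher and 0 lower in Van at an unadjusted p under 0.05. For VanLip/Con 4 were called lower, among them Atf3 at -0.61, and 2 higher, and for VanLip/Van 5 were called lower, among them Atf3 at -0.55, and 2 higher. The edgeR test called 2 lower and 1 higher for VanLip/Con and 3 lower and 1 higher for VanLip/Van. Of the cold-inducible genes Rbm3 and Cirbp 0 were called for Van/Con by either tool, with 1 at an unadjusted p under 0.05, and Rbm3 was called higher for VanLip/Van at 0.44 by DESeq2 but not by edgeR. The part of cell handling in the values of the 10 genes was not tested.

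Genes with the array of 3 heat shock element units in a listed window were counted as a description of the promoters shown above. Of 62 such genes with an adjusted p, 4 (6.45%) were called higher in Van than in Con and 2 (3.23%) lower, while the shares over all genes with a listed promoter were 2.88% and 2.19%. The 4 were Hsph1, Chordc1, Hspd1 and Hspe1, the last 2 of which share a promoter between them, and they are named here after their values were seen. For VanLip/Con 4 of 59 (6.78%) were called higher and 2 (3.39%) lower, beside 2.42% and 2.95%, and the 4, also named after their values were seen, were Kctd18, Vps52, Tmcc2 and Sf3b2. For VanLip/Van 4 of the 62 (6.45%) were called higher and 6 (9.68%) lower, beside 4.15% and 5.21%. Dnajb6, the gene of the set with this array, was in neither group.

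The genes most like each of the 10 over the 9 libraries were found by the Pearson correlation of log2 (normalized count + 1) among the 13503 genes that averaged 50 or more normalized counts. The 9 libraries fall into groups and share their scaling, so that the coefficients, which mix differences between groups with spread within them, are given without a p. Dnaja1 was most like Spast (0.985), Cyth1 (0.984) and Gm15542 (0.984). Ahsa1 was most like Fkbp4 (0.989) and Dynll1 (0.981), and Stip1 like Cacybp (0.978) and Dnajb2 (0.977). Dnajb1 and Dnajb4 were among the 3 genes most like each other (0.972), next to Fzd5 (0.976) and Wdr82 (0.975) for Dnajb1. For Bag3 the nearest gene was Wdr81 (0.966), for Dnaja2 Sfpq (0.954), for Dnajb6 2610005L07Rik (0.952), for Hsf1 8430419L09Rik (0.941) and for Hsf2 Fam134b (0.926).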

How the data were processed

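The authors aligned paired reads of polyadenylated RNA to GRCm38 with HISAT2 2.2.1, converted them with SAMtools 1.9 and assembled them with StringTie 2.1.3. They deposited FPKM values per gene and expected counts per gene, the latter estimated from coverage with tximport, neither whole nor normalized; the annotation release and the use of strand in counting are not given in the sources used here. Gene coordinates came from GENCODE on GRCm38 and promoter windows from RefSeq on GRCm38.p6. A row of the 2 tables was found for each of the 10 symbols, and groups came from the sample titles.

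Expected counts were rounded and fitted in R 4.3.3 with DESeq2 1.42.0 (median-of-ratios size factors, Wald test, group as the only term, all 9 libraries in 1 fit, default filtering), since the study names that test. All p-values are two-sided and adjusted by the Benjamini-Hochberg method over all genes tested. Fold changes are given with standard errors or 95% intervals of the fit, and FPKM was used for levels between genes. The alternatives were the quasi-likelihood test of edgeR 4.0.16, TMM library sizes, at least 10 counts in 3 libraries, only the 2 groups compared, a replicate block, thinned VanLip counts, each of the 9 libraries left out in turn, and limma 3.58.1 on log2 FPKM (pseudocounts of 1 and 0.1, or restricted to genes with a mean FPKM of 1 or more). The steps were tested on simulated data, where DESeq2 called more unchanged genes than edgeR in every contrast, so that calls by DESeq2 alone are the less certain; those of edgeR are given for the 10 genes and beside many of the list counts.

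The 10 genes, the lists of other genes and the rules were chosen with earlier results of these data known. Named from each list were up to 4 genes per contrast and direction with the lowest adjusted p, and for each of the 10 genes up to 3 with the highest correlation. Hspa1a and Hspa1b in Van/Con, Stub1, Nudc, Hsbp1 and Fos were named outside that rule or for a list of few calls. The replicates are libraries of different mice per the study, which housed its mice several to a cage. Which mice shared a cage, a litter or a preparation date is not stated. A p rests on the variation between these libraries and cannot separate treatment from a cage or date shared within a group.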

Additional observations from a re-analysis of the deposited data

How the results depend on the processing

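Limits on these values are the 3 libraries a group, the depth that coincides with VanLip, and the selection of the genes with results known. For Van/Con, limma on log2 (FPKM + 1) called 2 of the 10 genes and with a pseudocount of 0.1 it called 1, against 4, and Bag3 was lost under edgeR and all 3 limma settings. Ahsa1 was lost under both of these pseudocounts and Stip1 under that of 0.1. For VanLip/Van limma called 4 with a pseudocount of 1, without Dnajb1, and 3 with 0.1, without Dnajb1 and Dnajb4, against 5. Over the chaperone, heat shock factor, immediate early and cold-inducible lists 15, 11 and 29 genes were called for Van/Con, VanLip/Con and VanLip/Van. Limma on log2 (FPKM + 1) gave 6, 4 and 17, and a pseudocount of 0.1 gave 1, 3 and 14. For VanLip/Con edgeR gave 6 and limma with a mean FPKM of at least 1 gave 5. The cause was not tested. Leaving out 1 library gave 4 to 6, 1 and 5 called of the 10 genes.

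A replicate block in the fit gave 4, 1 and 5 of the 10 genes and 16, 9 and 29 of the list genes. Libraries of different groups with the same replicate number are not stated to share anything else. Their deviations from the group means correlated between -0.065 and 0.12, which cannot show whether they shared a preparation.

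Of 540 recomputed values, 16 reversed in sign, all in genes not called for that contrast and all near 0. For VanLip/Con Dnaja2 went from -0.0016 to 0.0073 under edgeR, 0.023 with TMM library sizes and 0.0015 with only the 2 groups, and for VanLip/Van Dnajb6 went from -0.0074 to 0.016 with TMM library sizes. The remaining reversals came with fewer libraries in the fit. Fits that each omitted 1 library gave from -0.082 to 0.034 for Hsf2 in Van/Con and from -0.059 to 0.036 for Dnajb6 in VanLip/Van. For VanLip/Con they gave from -0.026 to 0.019 for Dnaja2, from -0.015 to 0.080 for Dnajb6, from -0.017 to 0.094 for Hsf1, from -0.014 to 0.18 for Stip1 and from -0.0060 to 0.13 for Ahsa1.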
